A study of Mus musculus with 6 samples.

Results

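The genes described here are 40 integrin and adhesion receptor genes. They comprise the 29 genes with a symbol beginning Itga or Itgb and 11 further receptors and ligands of leukocyte adhesion (Icam1, Icam2, Cd44, Selplg, Vcam1, Cd2, Cd48, Cd226, Cd96, Crtam and Ly9). They were chosen by symbol from 18193 mouse genes that had a probe set annotated with exactly 1 symbol, and the probe set with the highest mean log2 intensity stood for each gene. Of the 40, 4 are in the list through their symbol and are not integrin chains themselves: Itgb1bp1, Itgb1bp2 and Itgb3bp encode proteins named for binding an integrin β chain, and Itgbl1 encodes an integrin β-like protein.

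Expression was measured with 6 Affymetrix arrays, and each group was a single array. The groups were Ezh2 KO and wild type cells, each grown as unpolarized, Th1 and Th2 cultures, all of strain C57BL/6. Naive CD4 T cells (low CD44, high CD62L) from spleen were activated for 2 days by immobilised anti-TCRβ (10 µg/ml) with antibody to CD28 (1 µg/ml) and IL-2 (15 ng/ml). They were then kept for 3 days in the same cytokines without those antibodies. Th1 cultures contained IL-12 (1 ng/ml) and an antibody to IL-4, and Th2 cultures contained IL-4 (10 ng/ml) and an antibody to IFN-γ. Unpolarized cultures contained both blocking antibodies, and 5 days in culture were common to all groups. The labels do not give the allele, the Cre driver, or the age of the mice, nor do they say whether the arrays of a genotype came from separate animals. P-values here therefore measure only the spread between these arrays.

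Integrins are heterodimers of an α and a β chain that bind ligands on other cells or in the extracellular matrix, and their affinity is raised from inside the cell by talin and kindlin. On T cells, αLβ2 (LFA-1) binds ICAMs, α4 paired with β1 or β7 binds VCAM-1 or MAdCAM-1, and αv paired with β3 or β5 binds matrix proteins such as vitronectin. CD44 binds hyaluronan, PSGL-1 (encoded by Selplg) binds selectins, and CD2, CD48 and the SLAM and nectin families of receptors join cells to each other. Ezh2 is a catalytic subunit of Polycomb repressive complex 2, which methylates lysine 27 of histone H3 at silent genes.

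The deposited intensities are on a linear scale with the same trimmed mean (500.003) on every array, and with array medians from 61.3 to 69.1. A gene was tested if its highest intensity reached 64.4, the median of all values, which is called the low-signal limit below. The Ezh2 probe set read 4971, 4876 and 4946 in Ezh2 KO unpolarized, Th1 and Th2 cultures, against 7002, 6553 and 7677 in the matching wild type cultures (log2 difference -0.52 ± 0.11, SD over 3 culture pairs, limma adjusted p = 0.0437). Median centring ended that call (Ezh2 adjusted p = 0.0922). Most of the Ezh2 signal thus remained under the KO label, and the deleted exons are not stated, so this probe set cannot check the labels. Of the 7 CD4 T cell markers with a probe set, 0 passed the genotype test and 0 read below the limit. In a bulk sample, fewer cells of a type and less RNA per cell cannot be told apart.

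Markers of other cells were low. All 4 measured NK cell markers (Ncr1, Tyrobp, Klra8 and Klre1) read below the limit on every array, with summed intensities of 86.7 to 114 in Ezh2 KO and 90.6 to 95.4 in wild type. Of 6 measured platelet and megakaryocyte markers, 4 (Pf4, Ppbp, Gp9 and Gp6) read below the limit on every array, and the sums ran from 158 to 260 in Ezh2 KO and from 153 to 232 in wild type. Of 10 myeloid and dendritic markers, 6 did, with sums of 400.2 to 520.0 in Ezh2 KO and 376 to 621 in wild type. Endothelial and stromal markers had 3 of 6 below the limit, with sums of 184 to 323 in Ezh2 KO and 144 to 202 in wild type. The 2 CD8 chains summed to 374 to 540 in Ezh2 KO and 389 to 414 in wild type.

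For 3 lists the marker sums of all Ezh2 KO cultures lay above those of all wild type cultures. The 5 measured B cell markers summed to 387 to 1014 in Ezh2 KO and 140 to 318 in wild type, with Ms4a1 past the test and Cd79a and Pax5 below the limit throughout. The 3 measured γδ T cell markers summed to 251 to 279 in Ezh2 KO and 86.1 to 183 in wild type, with Cd163l1 past the test and Sox13 below the limit. The 5 measured mast cell and basophil markers summed to 259 to 1270 in Ezh2 KO and 124 to 160 in wild type, led by Cpa3 at 1061 in the Ezh2 KO Th2 culture, with Ms4a2, Mcpt4 and Mcpt8 below the limit. The part of these cells in the results below was not tested.

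The first question was which adhesion genes differed by genotype, whatever the culture. In Ezh2 KO cells Itgb3, Cd96, Cd44, Itgb1, Itgal, Icam1 and Selplg rose, and Cd2 and Itga6 fell. Of the 40 genes, 29 reached the limit and were tested; 7 rose, 2 fell and 20 did not pass at an adjusted p of 0.05 (limma, culture blocked, Benjamini-Hochberg over 11572 genes). Across all genes tested 8.35% rose and 7.98% fell, 16.3% in either direction, against 24.1%, 6.90% and 31.0% of the 29. Itgb3, Cd96 and Cd44 rose by 2-fold or more, as 4.69% of all genes did, and 0 adhesion genes fell by as much, against 1.88%. Without adjustment, 20 of the 29 had a p under 0.05, against 38.7% of all genes tested. Ezh2 KO arrays all lay above the wild type arrays for 15 of the 29 (20.1% of all genes tested) and below them for 4 (27.5%). Log2 differences were positive in all 3 cultures for 16 (26.2%) and negative in all 3 for 7 (36.3%). The 9 genes that passed read above the limit on every array. So did 13 of the 20 that did not pass. The median difference was 0.42 on the log2 scale over the 29 genes and -0.07 over all genes tested, where the 29 include 7 genes with at least 1 array below the limit. With median centring, 4 adhesion genes rose and 1 fell, and over all genes tested the split was 863 higher and 411 lower, against 966 and 924.

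The test had 2 residual degrees of freedom, and its calls lay close to the threshold. With the arrays of any culture, or any single array, left out, 0 of the 9 genes and 0 of all genes passed with limma (2968 to 3266 genes at an unadjusted p under 0.05). The adjusted p of the 9 then ran from 0.0662 to 0.178. All 9 kept their direction and an unadjusted p under 0.05 in each of those fits. Without the filter on low values 0 of the 9 and 0 of 18193 genes passed, with 4711 genes at an unadjusted p under 0.05.

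**Figure D1:**
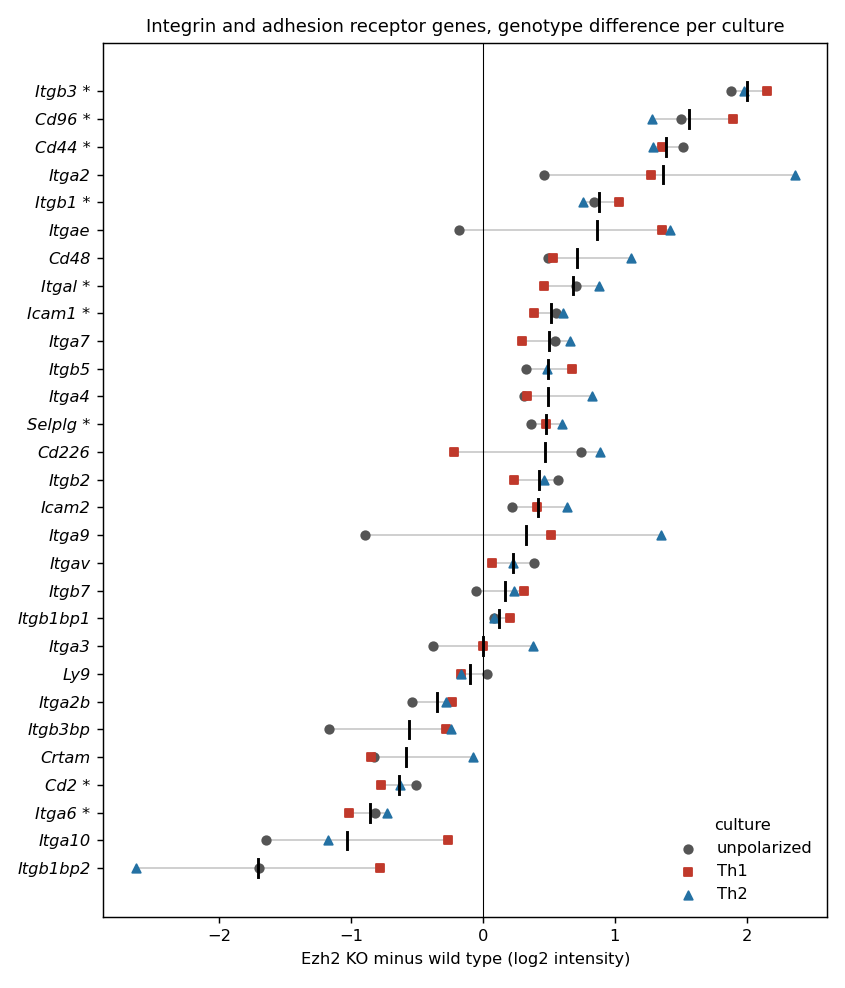
Log2 difference in intensity between Ezh2 KO and wild type for the 29 tested adhesion genes, with a symbol for each of the 3 cultures and a black tick at their mean; an asterisk marks the 9 genes past the test. Itgb3 lies farthest to the right among the 9 at 2.002, and Itga6 farthest to the left at -0.85; genes with wide horizontal spans, such as Itga9 and Itgb1bp2, did not pass.

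Of the β chains, Itgb3 rose the most. Its chain pairs with αv on many cells and with αIIb on platelets. Itgb3 read 2974, 2583 and 4002 in Ezh2 KO unpolarized, Th1 and Th2 cultures, against 810.0, 582 and 1015 in the wild type cultures. Every Ezh2 KO array lay above every wild type array, and in each genotype the Th2 culture was highest and the Th1 culture lowest. The difference was 2.002 ± 0.14 on the log2 scale (SD, n = 3 culture pairs), or 4.01-fold, with a limma adjusted p of 0.0153. A dimmer Itgb3 probe set read 143, 142 and 203 in Ezh2 KO, against 71.5, 93.7 and 52.3 in wild type.

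Both possible partners of the β3 chain were measured. Itgav, which encodes the αv chain, read 5718, 5577 and 5971 in Ezh2 KO, against 4364, 5312 and 5111 in wild type. The Ezh2 KO values were higher throughout, but the difference of 0.23 ± 0.16 did not pass (limma adjusted p = 0.194). Another Itgav probe set above the limit on every array gave 0.73 ± 0.45. Itga2b, which encodes αIIb, the platelet partner, read 129, 156 and 197 in Ezh2 KO, against 188, 183 and 240 in wild type (difference -0.35 ± 0.17, limma adjusted p = 0.0989). Its groups overlapped.

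Itgb1 encodes the β1 chain, shared by many α chains. It read 3610.2, 4517 and 3790.1 in Ezh2 KO, against 2010.5, 2206 and 2239 in wild type. The groups did not overlap, and the wild type cultures lay closer together than the Ezh2 KO cultures. The difference was 0.88 ± 0.14, or 1.84-fold (limma adjusted p = 0.0276). Of its 6 probe sets, the other 2 above the limit on every array gave 0.70 ± 0.16 and 0.40 ± 0.14, and 3 were dim. With all 6 averaged, Itgb1 did not pass (0.25, limma adjusted p = 0.201).

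Other β chains did not pass. Itgb2, the β2 chain of leukocyte integrins, read 10528, 8863 and 10583 in Ezh2 KO, against 7086, 7518 and 7699 in wild type. The groups did not overlap, and the difference was 0.42 ± 0.17 (limma adjusted p = 0.0762). Itgb5, another partner of αv, read 703, 758 and 905 in Ezh2 KO, against 561, 475 and 646 in wild type, with a difference of 0.50 ± 0.17 (limma adjusted p = 0.0602). Its 3 other probe sets gave 0.36, 0.18 and 0.06, the last 2 with mixed signs over the cultures. Itgb7, the β7 chain of gut-homing T cells, read 3488, 3082 and 3815 in Ezh2 KO, against 3626, 2480 and 3237 in wild type. These values overlapped, and the difference was 0.16 ± 0.20 (limma adjusted p = 0.350).

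Itgal rose and Itga6 fell among the α chains. Itgal encodes αL, the partner of β2 in LFA-1. It read 7796, 7865 and 9600.0 in Ezh2 KO, against 4771, 5699 and 5224 in wild type. No wild type array reached the Ezh2 KO range. The difference was 0.68 ± 0.21, or 1.61-fold (limma adjusted p = 0.0435), and a second Itgal probe set gave 0.48 ± 0.22. Median centring ended the Itgal call (adjusted p = 0.0534).

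Itga6 encodes α6, which pairs with β1 or β4 in laminin receptors. It read 2133, 1936 and 1981 in Ezh2 KO, against 3755, 3922 and 3280.1 in wild type. The Ezh2 KO values lay within a narrow range below all wild type values. The difference was -0.85 ± 0.15, 1.81-fold lower in Ezh2 KO (limma adjusted p = 0.0289), and its second probe set gave -1.16 ± 0.16. Of the β chains that pair with α6, Itgb1 rose and Itgb4 read below the limit on all arrays.

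Itga4, the α4 chain of VLA-4 and of the gut-homing α4β7 integrin, read 730, 629 and 941 in Ezh2 KO, against 588, 498 and 530 in wild type. The groups did not overlap, and the Ezh2 KO Th2 culture stood highest. The difference of 0.49 ± 0.29 did not pass (limma adjusted p = 0.0994). Another Itga4 probe set above the limit on every array gave 0.78 ± 0.58. Itgae, the αE chain that binds E-cadherin, read 36.8, 36.3 and 85.5 in Ezh2 KO, against 41.7, 14.1 and 31.9 in wild type. Only the Ezh2 KO Th2 array reached the limit, so this gene entered the test through that array (difference 0.87 ± 0.91, limma adjusted p = 0.199).

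**Figure D2:**
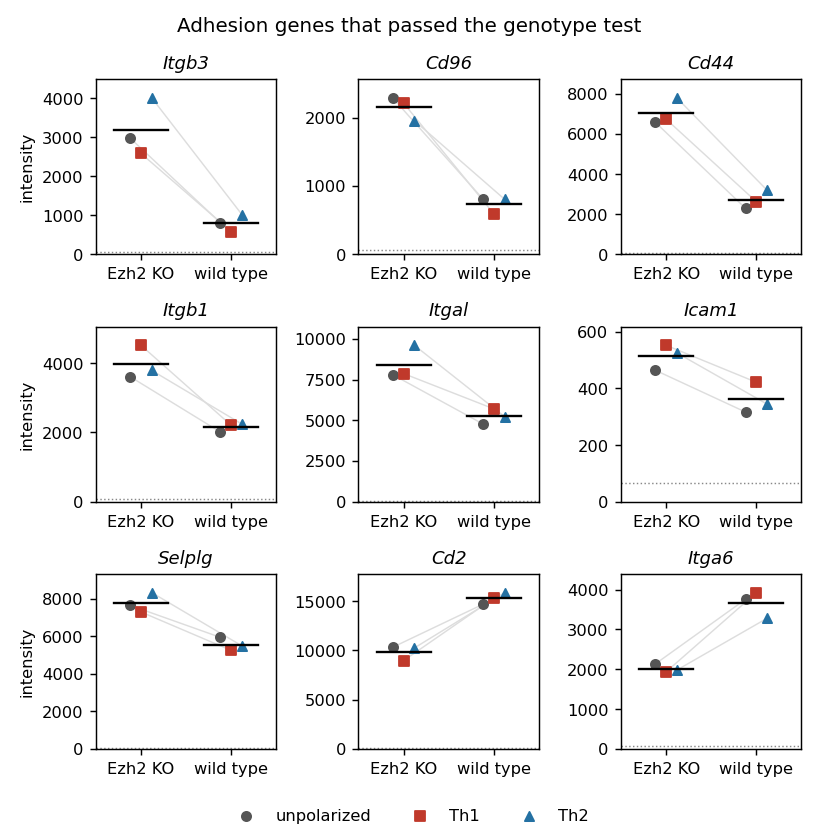
Deposited intensity (linear axis from 0) on each array for the 9 adhesion genes past the genotype test, Ezh2 KO on the left and wild type on the right; symbols mark the culture, grey lines join the pairs, black bars are means of 3 arrays and the dotted line is the low-signal limit of 64.4. In each panel the Ezh2 KO and wild type values do not overlap; Itgb3 averaged 3186 and 802, and Cd2 9839 and 15271.

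The remaining tested integrin genes did not pass. Itga7, the α7 chain of laminin receptors in muscle, was higher in every Ezh2 KO culture, at 267 to 356 against 169 to 244 in wild type (0.50 ± 0.19, limma adjusted p = 0.0617). Itga3 read 108 to 230 in Ezh2 KO and 140 to 176 in wild type, with a difference of 0.00 ± 0.38. Itgb1bp1, an adaptor that binds the β1 tail, differed by 0.12 ± 0.07, and Itgb3bp by -0.56 ± 0.52. Itga2, Itga9, Itga10 and Itgb1bp2 had from 2 to 5 arrays below the limit, with differences of 1.36 ± 0.95, 0.32 ± 1.14, -1.03 ± 0.70 and -1.70 ± 0.92. Itga2, Itga10 and Itgb1bp2 each had 1 array of the lower genotype at the floor of 11.3, to which lower readings were raised, and their differences depend on that floor.

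For Itga9, the chosen probe set and a dimmer one disagreed. The chosen set read 57.6, 109 and 99.1 in Ezh2 KO, against 107, 76.3 and 38.9 in wild type, with mixed signs over the cultures. The dimmer set read 52.0, 75.9 and 64.8 in Ezh2 KO, against 1.56, 2.92 and 4.13 in wild type, where every wild type array was below the floor.

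The 11 genes below the limit on every array were Itga1, Itga5, Itga8, Itgam, Itgax, Itgb2l, Itgb4, Itgb6, Itgb8, Itgbl1 and Vcam1, with intensities from 0.926 to 60.6. They include the α chains of myeloid cells, Itgam and Itgax, and the α5 chain of the fibronectin receptor. These arrays give no direction for them.

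Receptors and ligands outside the integrin family included the other large rises. Cd96, a receptor of T and NK cells that binds the nectin-like protein CD155 (Pvr), read 2287, 2212 and 1955 in Ezh2 KO, against 809, 593 and 805 in wild type. The genotypes were far apart, and the order of the cultures differed between them. The difference was 1.56 ± 0.31, or 2.95-fold (limma adjusted p = 0.0256). Pvr itself was among the genes that fell, at 519, 614 and 489 in Ezh2 KO, against 940.5, 1119 and 797 in wild type (-0.81 ± 0.09, limma adjusted p = 0.0270); it was singled out after its values were seen.

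Other receptors related to Cd96 were dim. Cd226, the activating receptor for the same ligand, read 86.2, 50.4 and 79.1 in Ezh2 KO, against 51.5, 58.6 and 42.9 in wild type, so 4 of its 6 arrays were below the limit (0.47 ± 0.60, limma adjusted p = 0.277). Crtam, a receptor for the nectin-like protein Cadm1, read 64.0, 69.0 and 85.8 in Ezh2 KO, against 114, 124 and 90.6 in wild type. The Ezh2 KO values were lower throughout (-0.59 ± 0.44, limma adjusted p = 0.128), with 1 array below the limit.

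Cd44, the hyaluronan receptor that marks antigen-experienced T cells and by whose low surface level the input cells were selected, read 6582, 6736 and 7794 in Ezh2 KO, against 2295, 2623 and 3191 in wild type. In both genotypes the Th2 culture was highest. The difference was 1.39 ± 0.12, or 2.62-fold (limma adjusted p = 0.0200), and both other bright probe sets were higher in Ezh2 KO in every culture (1.25 ± 0.18 and 1.599 ± 0.21).

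Icam1, an LFA-1 ligand, read 464, 553 and 526 in Ezh2 KO, against 317, 422 and 345 in wild type. The groups lay close but did not overlap, and the difference was 0.52 ± 0.11, or 1.43-fold (limma adjusted p = 0.0448). Icam2, another LFA-1 ligand, read 1551, 1295 and 1741 in Ezh2 KO, against 1335, 976 and 1122 in wild type (0.42 ± 0.21, limma adjusted p = 0.0914), with overlapping groups. Median centring ended the Icam1 call (adjusted p = 0.0715).

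Cd2 fell. It is an adhesion receptor of T and NK cells whose mouse ligand is CD48. It read 10317, 8957 and 10244 in Ezh2 KO, against 14673, 15289 and 15851 in wild type. No Ezh2 KO array reached the wild type range, and the difference was -0.64 ± 0.13, 1.55-fold lower in Ezh2 KO (limma adjusted p = 0.0369, or 0.0746 with median centring).

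Cd48, its ligand, read 11696, 12434 and 15656 in Ezh2 KO, against 8325, 8587 and 7206 in wild type. The Ezh2 KO values were higher in each culture, most in Th2 (0.71 ± 0.35), and the test was missed (limma adjusted p = 0.0694). Ly9, a SLAM family receptor that binds itself, read 1969, 1921 and 1735 in Ezh2 KO, against 1928, 2155 and 1950.3 in wild type. These values overlapped (-0.10 ± 0.11, limma adjusted p = 0.462).

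**Figure D3:**
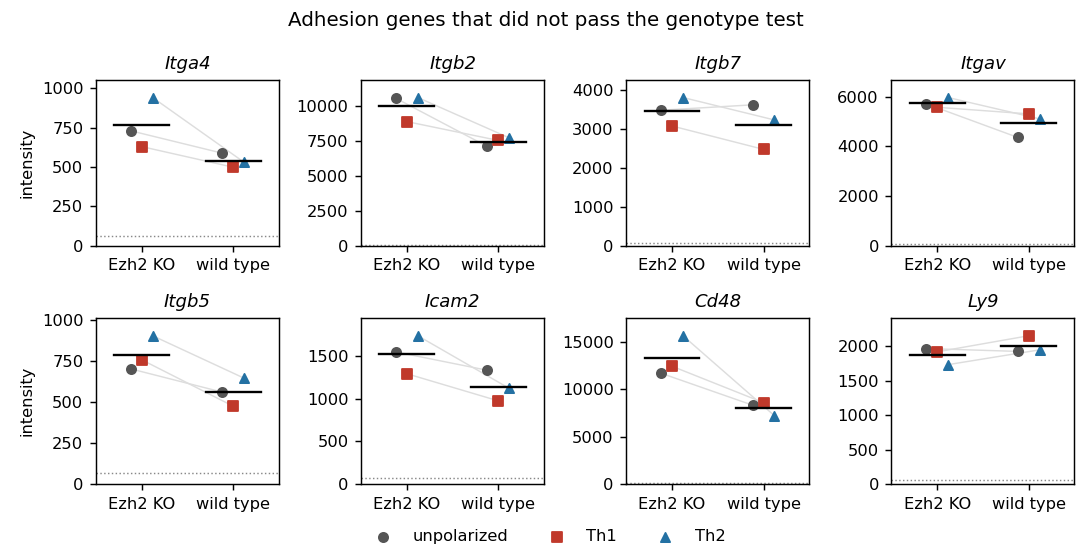
Deposited intensity (linear axis from 0) on each array for 8 adhesion genes that did not pass the genotype test, drawn as in the plot of the 9 genes that did. Cd48 read 11696 to 15656 in Ezh2 KO and 7206 to 8587 in wild type, while the 2 genotypes overlapped for Itgb7, Icam2 and Ly9.

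Selplg rose slightly and lay at the edge of the threshold. It encodes PSGL-1, a selectin ligand once its glycans and tyrosines are modified. It read 7656, 7302 and 8333 in Ezh2 KO, against 5949, 5253 and 5493 in wild type. The groups did not overlap, and the difference was 0.48 ± 0.12, or 1.39-fold (limma adjusted p = 0.0497). Selplg did not pass under 6 alternatives that kept all arrays, among them quantile normalization (adjusted p = 0.0566) and median centring (adjusted p = 0.0641).

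Several enzymes that build selectin ligands changed. Of 13 tested genes for selectins and selectin ligand synthesis, 5 rose and 2 fell, or 53.8% against 16.3% of all genes tested, with a list median of -0.18 against -0.07. Gcnt1, which makes the core 2 branch of O-glycans, read 128, 248 and 258 in Ezh2 KO, against 7.24, 11.8 and 11.2 in wild type. All 3 wild type readings were below the limit, so Gcnt1 entered the test through the Ezh2 KO cultures. The size of its difference (4.13 ± 0.55, limma adjusted p = 0.0182) rests on dim readings. St3gal6, a sialyltransferase of these glycans, read 657, 934 and 613 in Ezh2 KO, against 89.1, 168 and 56.4 in wild type (2.93 ± 0.49, limma adjusted p = 0.0208). Its wild type Th2 array was below the limit. St3gal6 has 5 probe sets, and with an array or culture left out its difference ran from 2.30 to 2.96.

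The α1,3-fucosyltransferase genes moved in opposite directions. Fut4 read 593, 715 and 623 in Ezh2 KO, against 168, 305 and 179 in wild type (1.62 ± 0.34, limma adjusted p = 0.0260); with both its probe sets averaged Fut4 did not pass (adjusted p = 0.0662). Fut7, the main fucosyltransferase of selectin ligands in leukocytes, read 143, 102 and 86.3 in Ezh2 KO, against 299, 294 and 345 in wild type (-1.53 ± 0.47, limma adjusted p = 0.0339). Tpst2, which sulfates tyrosines of PSGL-1 and was singled out after its values were seen, rose by 0.84 ± 0.14 (limma adjusted p = 0.0287).

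Among 15 tested genes of the SLAM, CD2 and nectin pathways, 5 rose and 2 fell, or 46.7% against 16.3% of all genes tested, with a median of 0.13. Cd244a, the receptor 2B4 whose ligand is CD48, read 157, 170 and 189 in Ezh2 KO, against 1.21, 16.0 and 11.9 in wild type. All 3 wild type readings were below the limit, so Cd244a entered the test through the Ezh2 KO cultures. The size of its difference (3.73 ± 0.30, limma adjusted p = 0.0143) rests on dim readings. Cd160, a receptor of T and NK cells, is counted among the 5 that rose but belongs to none of the named pathways. It read 814, 704 and 873 in Ezh2 KO, against 80.0, 44.7 and 62.4 in wild type (3.71 ± 0.33, limma adjusted p = 0.0143). Of its wild type arrays, 2 of 3 were below the limit. Slamf7 rose by 1.87 ± 0.71 (limma adjusted p = 0.0418). Pstpip1, an adaptor that binds the CD2 tail, read 3810, 3583 and 4398 in Ezh2 KO, against 1403, 2004 and 1532 in wild type (1.27 ± 0.37, limma adjusted p = 0.0342), the opposite direction to Cd2.

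Cd48 and Ly9 lie in a run of 7 SLAM family genes on chromosome 1, in the order Cd244a, Ly9, Slamf7, Cd48, Slamf1, Cd84 and Slamf6. Cd244a, Slamf7 and Cd84 rose. Ly9, Slamf1 and Slamf6 gave -0.10, -0.05 and 0.45 and did not pass, nor did Cd48. Genes that did not pass thus lay between those that rose, but this pattern depends on the threshold. Cd48 was higher in every Ezh2 KO culture (0.71) and passed without the block (limma adjusted p = 0.0211).

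**Figure D4:**
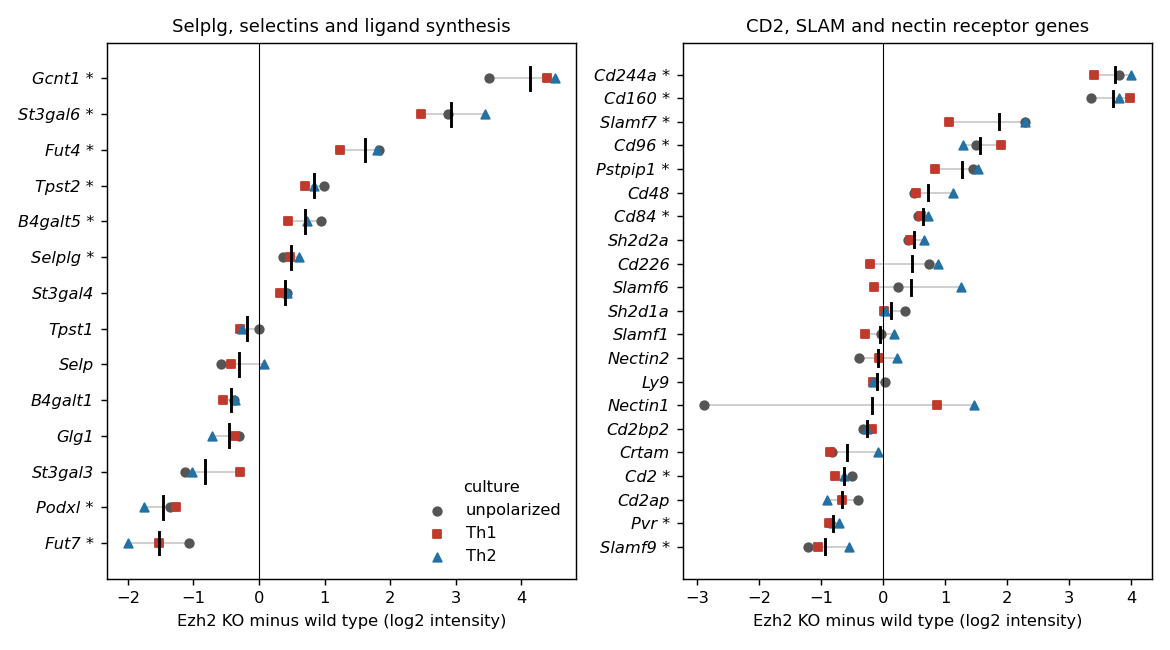
Log2 difference in intensity between Ezh2 KO and wild type per culture for Selplg with the tested selectin and ligand synthesis genes (left) and for 6 adhesion receptors with the tested SLAM, CD2 and nectin pathway genes (right); ticks are means and asterisks mark genes past the test. Gcnt1 and Cd244a lie farthest right at 4.13 and 3.73, both over wild type readings below the low-signal limit. Fut7 and Slamf9 lie farthest left at -1.53 and -0.94. Slamf9 read 39.7 to 51.6 in Ezh2 KO, below the limit, and 75.7 to 91.7 in wild type. It entered the test through the wild type cultures.

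Of 29 tested genes for integrin activation and adaptors, which couple integrins to the cytoskeleton, 4 rose and 4 fell, or 27.6% against 16.3% of all genes tested, with a median of -0.04. With median centring 2 rose and 2 fell, against 863 and 411 of all 11568 genes then tested. With all probe sets averaged 2 rose, against 786 of 10624. Parvg, an adaptor at the integrin tail, read 514, 461 and 550.3 in Ezh2 KO, against 911, 847 and 881 in wild type (-0.79 ± 0.10, limma adjusted p = 0.0276), and the tensin gene Tns1 differed by -0.88 ± 0.26 (limma adjusted p = 0.0379). Skap2, an adaptor of β2 integrin signalling, rose by 0.80 ± 0.20 (limma adjusted p = 0.0360), but did not pass with its probe sets averaged (adjusted p = 0.359). Tns3 rose by 0.87 ± 0.28 (limma adjusted p = 0.0413), with 2 arrays below the limit, and did not pass under 6 alternatives that kept all arrays. Talin 1 (Tln1) and kindlin-3 (Fermt3), the activators of leukocyte integrins, gave -0.14 ± 0.08 and -0.04 ± 0.02 and did not pass; they too were singled out afterwards.

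Of 13 tested genes for integrin and CD44 ligands, 2 rose and 0 fell, or 15.4% against 16.3% of all genes tested, with a median of 0.25. With trended robust variance 4 rose, against 1803 of all 11572 genes. Cdh1, which encodes E-cadherin, the αE ligand, read 330.2, 305 and 248 in Ezh2 KO, against 24.8, 31.6 and 33.4 in wild type. All 3 wild type readings were below the limit, so Cdh1 entered the test through the Ezh2 KO cultures, and the size of its difference (3.30 ± 0.42, limma adjusted p = 0.0182) rests on dim readings. Nrros, which tethers latent TGF-β, an αv ligand, rose by 0.92 ± 0.04 (limma adjusted p = 0.0218). Of 18 tested tetraspanin, CD47 and ERM linker genes, 1 rose and 2 fell, or 16.7% against 16.3% of all genes tested, with a median of 0.15. With trended robust variance 5 rose and 4 fell, while 1803 rose and 2306 fell of all 11572 genes. With the filter at the 60th percentile of gene means 5 rose, against 1284 of all 7277 genes then tested. Tspan32 differed by -1.0035 ± 0.14, Cd81 by -0.96 ± 0.20 and Tspan4 by 0.95 ± 0.27 (limma adjusted p from 0.0256 to 0.0354).

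The second question was whether adhesion genes differed between cultures, with genotype as a block. In Th1 against Th2, Th1 against unpolarized and Th2 against unpolarized cultures, 0 of the 29 genes and 0% of all genes passed with limma. At an unadjusted p under 0.05 there were 1, 2 and 6 of the 29, against 7.59%, 5.46% and 6.70% of all genes, and 878, 632 and 775 genes. With the variance modelled on intensity (limma trend with robust estimation), 31, 0 and 13 of all genes passed. Among the 29, Itgb3 was the gene that then passed, in Th1 against Th2 (Itgb3 adjusted p = 0.0331). The last 2 comparisons share the unpolarized arrays.

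Itgb3 was lower in Th1 than in Th2 cultures by 0.63 in Ezh2 KO and by 0.80 in wild type (fitted difference -0.72, SE 0.12, limma adjusted p = 0.538). With all probe sets averaged the fitted difference was -0.28. The other extremes of Th1 against Th2 were Itgb1bp2 at 1.36, Itga2 at 1.17 and Itga9 at 0.56, and, at the low end, Itgae at -1.21 and Itga3 at -0.43. Apart from Itgb3 and Itga3, each of these had arrays below the limit.

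Against unpolarized cultures, Th1 cultures differed most in Itga10 (1.45), Itgb1bp2 (0.47) and Icam1 (0.33), and at the low end in Itgae (-0.79), Itgb7 (-0.36) and Icam2 (-0.36). Th2 cultures differed most in Itga10 (1.305), Itga3 (0.72) and Itga2b (0.48), and at the low end in Itga2 (-1.33), Itgb1bp2 (-0.89) and Itga7 (-0.47). None of these passed. Itga10, Itgb1bp2, Itgae and Itga2 had arrays below the limit. Both Itga10 differences rest partly on the same Ezh2 KO unpolarized array, whose reading was raised to the floor. Whether a genotype difference depends on culture has no test with 1 array per group.

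**Figure D5:**
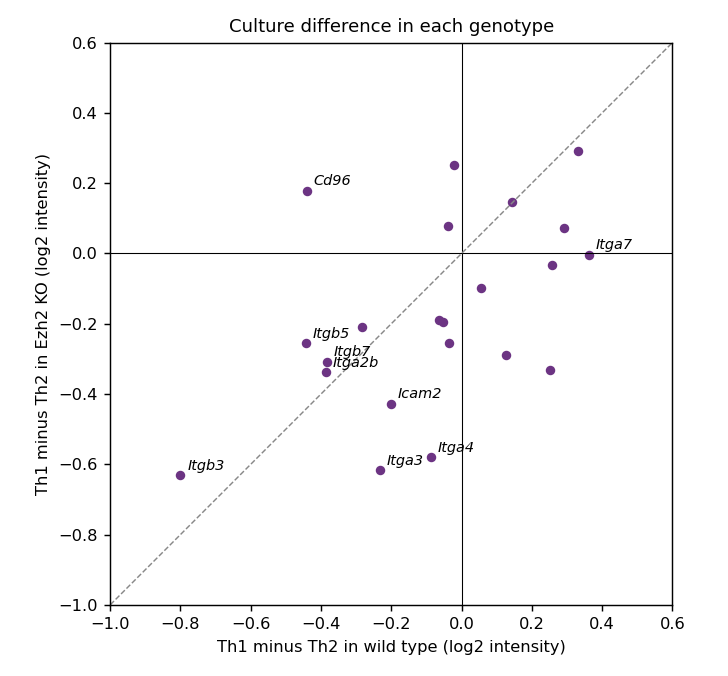
Log2 intensity difference between Th1 and Th2 cultures in Ezh2 KO (vertical axis) and in wild type (horizontal axis) for the 22 adhesion genes above the low-signal limit on every array; each point is 1 gene and rests on 2 arrays per genotype, and the dashed line marks equal differences. Itgb3 lies lowest, at -0.63 in Ezh2 KO and -0.80 in wild type, and Cd96 has opposite signs at 0.18 and -0.44.

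Promoter sequences of the genes that rose were set side by side. RefSeq (GRCm38.p6) gave a promoter for 25 of the 40 genes and for 4 of the 9 that passed, Cd44, Cd96, Icam1 and Itgb1. The 250 bases before the start are shown for 3 of them, from the highest to the lowest CpG ratio. Capitals mark matches on either strand to TGTGGT (RUNX), GGAAATTCC (κB), CCGGAA (ETS) or GGGCGG (GC box). No match overlapped another.
Itgb1, chr8:128685404-128685653, plus strand: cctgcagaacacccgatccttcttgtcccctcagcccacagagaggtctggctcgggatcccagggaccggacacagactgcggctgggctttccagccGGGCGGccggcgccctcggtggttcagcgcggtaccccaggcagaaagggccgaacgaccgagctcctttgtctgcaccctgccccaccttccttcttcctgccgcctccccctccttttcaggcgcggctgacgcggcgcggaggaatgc
Icam1, chr9:21015690-21015939, plus strand: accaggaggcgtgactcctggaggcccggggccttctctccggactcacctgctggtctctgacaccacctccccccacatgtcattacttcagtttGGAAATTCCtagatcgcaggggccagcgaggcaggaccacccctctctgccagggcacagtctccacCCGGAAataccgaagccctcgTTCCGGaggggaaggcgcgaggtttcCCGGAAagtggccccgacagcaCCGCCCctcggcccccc
Cd44, chr2:102901666-102901915, minus strand: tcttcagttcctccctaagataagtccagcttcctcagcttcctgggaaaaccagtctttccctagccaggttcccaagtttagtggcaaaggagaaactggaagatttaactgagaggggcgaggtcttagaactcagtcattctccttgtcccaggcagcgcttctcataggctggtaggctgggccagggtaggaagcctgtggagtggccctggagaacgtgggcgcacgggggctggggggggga

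The ratio of observed to expected CpG was 0.74 for Itgb1, 0.58 for Icam1, 0.29 for Cd96 and 0.26 for Cd44, against a median of 0.37 (quartiles 0.17 and 0.72) over all 32851 promoters. The 4 rising genes thus ran from above the upper quartile to below the median. The Icam1 window held 1 κB, 3 ETS and 1 GC box match, the Itgb1 window 1 GC box match, the Cd96 window 1 RUNX match, and the Cd44 window none of the 4 motifs. Over all promoters, 0.286% held the κB string, 12% the ETS string, 32.7% the GC box string and 14% the RUNX string. Each motif was searched as 1 exact string, and other forms of these sites were not counted. The low κB share therefore holds for GGAAATTCC alone and not for κB sites in general.

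Neighbouring genes were also compared. Only tested genes counted as neighbours, so untested genes can lie between a neighbour and its adhesion gene. The 9 adhesion genes that passed had 18 distinct tested neighbours, of which 1 rose and 4 fell, against 8.35% and 7.98% of all genes tested. Myl4, a tested neighbour of Itgb3, rose by 0.70 ± 0.18, in the direction of the adhesion gene. So did Pdk1 (neighbour of Itga6) and Ptgfrn (neighbour of Cd2) follow their adhesion genes, at -0.75 ± 0.21 and -1.17 ± 0.28. Morc1 (neighbour of Cd96) and Coro1c (neighbour of Selplg) differed by -4.30 ± 0.39 and -0.46 ± 0.06, in the opposite direction.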

How the data were processed

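The authors' deposited values are probe set intensities on a linear scale from Affymetrix 3' arrays labelled from total RNA, made with Affymetrix Expression Console per the submitters' processing notes. Its version and the summarization method are not given in the sources used here. Of 45101 probe sets, 34945 carried 1 gene symbol in the platform annotation. Signal over background limits dim genes, and the number of arrays limits precision.

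Values under the 20th percentile of the table (11.3) were set to it before taking log2. This can only shrink the difference within a culture pair. Where pairs differ in sign, the mean over 3 pairs can shift either way. Genotype and culture effects were estimated without interaction by limma 3.58.1 in R 4.3.3 on all 11572 genes that reached the median of all values, with eBayes and Benjamini-Hochberg adjustment. Differences are means ± SD over 3 culture pairs. The fit was tested on simulated data. Promoters came from RefSeq tables.

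The genes, lists and tests were chosen with earlier results of these data known. Every gene of the set was to be named. Array values were to be given for genes past the threshold and for a set of T cell adhesion genes, the 3 highest and 3 lowest for each culture contrast, and up to 4 passing genes for each list. Alternatives were median centring, quantile normalization, other floors and filters, other probe set rules, a trended robust variance, no block, and leaving out arrays.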

Additional observations from a re-analysis of the deposited data

Results flagged for a closer look

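3 adhesion genes with every array above the low-signal limit had genotype differences of opposite sign between cultures. The difference between cultures was not tested, since each culture had 1 array per genotype. Itga3 gave -0.38 in unpolarized, -0.0025 in Th1 and 0.38 in Th2 cultures on the log2 scale (Ezh2 KO minus wild type). Itgb7 gave -0.056 in unpolarized, 0.31 in Th1 and 0.24 in Th2 cultures. Ly9 gave 0.030 in unpolarized, -0.17 in Th1 and -0.17 in Th2 cultures. Genes with an array below the limit were not examined in this way.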

How the results depend on the processing

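Of the adhesion genes, 7 rose and 2 fell in the main analysis. With median centring 4 rose and 1 fell. Without the filter on low values 0 rose and 0 fell, among 18193 genes tested in place of 11572. With a filter at the 60th percentile of gene means 12 rose and 2 fell. That filter kept 7277 genes, among them the 9 passing adhesion genes and 10 of the other 20. With trended robust variance 14 rose and 4 fell. With any culture or any array left out, 0 to 0 rose and 0 to 0 fell; leaving out an array gives the same genotype estimate as leaving out its culture, since the lone array then only sets its culture's level. Fewer residual degrees of freedom are left in those fits. The cause of the other shifts was not tested. The counts stayed within 1.5 times under quantile normalization, other floors, other probe set rules and no block. Over all genes, the main 966 higher and 924 lower became 863 and 411 with median centring, and 0 and 0 without the filter. They became 1284 and 1766 of 7277 genes with the 60th percentile filter. With trended robust variance they became 1803 and 2306, and without the block 1267 and 1571.

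Of the culture comparisons, Th1 against Th2 had 0 adhesion genes in the main analysis and 1 with trended robust variance, and no other alternative changed any of the 3 counts. No adhesion gene past the threshold changed direction under any alternative run. With an array or culture left out, differences that had not passed changed sign for Itga3 (-0.19 to 0.19) and Itga9 (-0.19 to 0.93) between genotypes, for Itga9 between Th1 and Th2 (-0.21 to 1.32) and for Itgb1bp2 between Th1 and unpolarized cultures (-0.22 to 1.16). Of the gene lists, all had 0 genes past the threshold without the filter. Genes for selectin ligand synthesis that fell numbered 5 with trended robust variance and 1 with probe sets averaged, against 2, and tetraspanin and linker genes that rose numbered 2 without the block, against 1. The main fit pairs the genotypes within each culture. Without that block 9 adhesion genes rose and 2 fell. The labels give no replicate numbers, so no replicate block could be added.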
